A study of Mus musculus with 6 samples.

Results

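The 9 genes described here encode myosin heavy chains, the motor subunits of class II myosin, and were taken by name from a deposited table of 45706 genes. They are Myh6, Myh7, Myh7b, Myh3 and Myh8 of striated muscle, Myh11 of smooth muscle, and Myh9, Myh10 and Myh14 of non-muscle cells. Poly(A) RNA of 6 hearts of C57BL6/J mouse embryos had been sequenced from stranded libraries as read pairs. In 3 littermate controls both alleles of RBPMS and of RBPMS2, RNA-binding proteins of heart and smooth muscle cells, were flanked by loxP sites (flox/flox, with no Cre). In the 3 knockouts the same floxed alleles were combined with aMyHC Cre, a recombinase named for the promoter of alpha-myosin heavy chain. That promoter belongs to Myh6, one of the 9 genes, and is active in cardiomyocytes, so the other cells of the heart are not its target. The comparison covers the Cre transgene together with the deletion, because no control carried Cre. The labels name no embryonic day. Nothing in them says whether the hearts of a group came from separate litters, so p-values measure the spread between these samples.

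Paired myosin heavy chains joined at a coiled-coil tail form one motor, and the head of each binds actin and splits ATP. The alpha chain made from Myh6 is the faster motor of the heart and the beta chain made from Myh7 the slower one. In mouse, the beta chain dominates the embryonic ventricle, the alpha chain is the main form of the atria, and the ventricle turns to the alpha chain around birth. Myh3 and Myh8 are the embryonic and perinatal chains of skeletal muscle. The non-muscle chains drive cell shape, migration and the contractile ring of dividing cells.

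Myh7 and Myh6 lie head to tail on the minus strand of chromosome 14 in mm10, Myh7 (ENSMUSG00000053093) at chr14:54970684-54994626 and Myh6 (ENSMUSG00000040752) at chr14:54941921-54966927, with 3756 bases between them. The skeletal and non-muscle genes Myh3 (chr11:67078300-67102291), Myh8 (chr11:67277124-67308634) and Myh10 (chr11:68691559-68816632) share chromosome 11, on the plus strand. The others stand alone, Myh7b at chr2:155611212-155634307, Myh11 at chr16:14194535-14291372, Myh9 at chr15:77760587-77842175 and Myh14 at chr7:44605803-44670843. The antisense transcript Mhrt (ENSMUSG00000097652; chr14:54968678-54974349, plus strand) starts in that gap and overlaps the last 3666 bases of Myh7. Because Myh6 passed the test given below and Myh7 did not, the sequence around the start of each is shown first. Each runs from 250 bases before to 50 bases after a start site of RefSeq (build GRCm38.p6, minus strand, read 5′ to 3′), at chr14:54966558-54966857 for Myh6 and chr14:54994577-54994876 for Myh7. Capitals mark an M-CAT element, the motif of TEAD factors (CATTCC on either strand), and a TATA box (TATAAA on either strand).
Myh6: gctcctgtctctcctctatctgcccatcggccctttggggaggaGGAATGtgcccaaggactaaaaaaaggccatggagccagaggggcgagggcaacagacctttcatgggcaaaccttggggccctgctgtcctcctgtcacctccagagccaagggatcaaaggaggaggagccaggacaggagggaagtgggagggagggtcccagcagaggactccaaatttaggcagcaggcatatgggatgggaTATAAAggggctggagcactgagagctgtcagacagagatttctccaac
Myh7: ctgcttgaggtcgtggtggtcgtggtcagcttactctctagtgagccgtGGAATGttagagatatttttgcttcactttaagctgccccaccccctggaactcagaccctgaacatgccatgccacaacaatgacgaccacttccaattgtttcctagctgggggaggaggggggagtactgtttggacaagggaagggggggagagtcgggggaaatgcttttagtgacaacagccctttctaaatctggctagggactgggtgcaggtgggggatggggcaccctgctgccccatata
Both windows hold 1 M-CAT element, from 206 to 201 bases before the start in Myh6 and from 201 to 196 bases before it in Myh7. M-CAT elements were found in 14.7% of 32851 promoter windows of the same length. The TATA box of Myh6 (13.6% of windows hold one) lies 2 to 7 bases after the annotated start. Neither window held an exact match to the pattern used for a CArG box, the motif of the serum response factor (1.6% of windows). The same was true of a MEF2 site (3.2%) and a nuclear receptor half-site (AGGTCA, 16.3%), with both strands searched. Variants of these patterns were not searched for, so the windows may hold sites that differ from them. RefSeq lists a second start for Myh7, whose window begins further downstream and holds no M-CAT element. Neither window of Myh7 held an exact TATAAA. The one shown ends inside a run of alternating A and T that continues in the other. Promoter windows were matched for 8 of the 9 genes, and M-CAT elements occurred in those of Myh6, Myh7 and Myh10.

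In GENCODE M21, the source of the coding stretches shown here, the coding sequences of Myh6 and Myh7 were 91.7% identical over 5802 aligned bases, the closest pair among the 9 genes, followed by Myh3 and Myh8 at 80.9%. Myh6 was 72.7% identical to Myh7b and between 59.4% and 61.1% identical to the smooth muscle and non-muscle genes. Such likeness bears on how a read can be assigned. Of the 6039 stretches of 75 bases (the length of 1 read of a pair) in the main Myh6 transcript, 939 or 15.5% also occur unchanged in Myh7. The longest stretch shared by both is shown because a read pair from it cannot be told apart. It covers 245 bases, coding bases 4246 to 4490 of Myh6 and 4240 to 4484 of Myh7, in the part that encodes the tail.
Myh6 and Myh7: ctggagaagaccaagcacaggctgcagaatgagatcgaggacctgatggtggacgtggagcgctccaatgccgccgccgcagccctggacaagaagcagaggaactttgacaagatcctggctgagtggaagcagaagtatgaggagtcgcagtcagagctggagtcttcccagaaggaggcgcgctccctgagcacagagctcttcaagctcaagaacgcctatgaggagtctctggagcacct
By contrast, the 60 aligned bases with the most differences held 27 of them (capitals), at coding bases 3226 to 3285 of Myh6 and 3220 to 3279 of Myh7.
Myh6: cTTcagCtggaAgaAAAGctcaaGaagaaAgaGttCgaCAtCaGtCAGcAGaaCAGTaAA
Myh7: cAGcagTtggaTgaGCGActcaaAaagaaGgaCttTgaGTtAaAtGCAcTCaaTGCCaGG
Myh8 shared 12.9% of its stretches with other skeletal muscle myosins, Myh3 shared 1.86%, Myh9 and Myh10 shared under 1% (0.652% and 0.625%), and Myh7b, Myh11 and Myh14 shared none. The sources used here do not say how reads that fit several genes were treated, so the split between Myh6 and Myh7 is less certain than their sum.

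Deposited values are read numbers that had been divided by a factor for each heart and rounded, and they summed to between 17861435 and 18439201 per heart. The spacing of low values gave estimated depths of 12960709 to 21331727 reads in control hearts and 14759077 to 25837261 in knockout hearts. Rbpms was at 6998, 3868 and 7656 in control replicates 1, 2 and 3 and at 1134, 1117 and 852 in knockout replicates 1, 2 and 3, and Rbpms2 at 1711, 1362 and 1998 against 879, 1003 and 911, so that both groups separated in the direction of their labels. Control replicate 2 was the lowest control for both. The ratio of the knockout mean to the control mean was 0.168 for Rbpms and 0.551 for Rbpms2, so RNA of both genes remained in these whole hearts. Protein was not part of these data. Cardiomyocyte markers such as Tnnt2 and Actc1 were abundant in every heart, whereas Myod1 and Pax7, defining genes of skeletal muscle, were listed at 0 in all 6.

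The 9 genes differed widely in level. Per kilobase of exon in the main transcript, the scale on which genes can be set side by side, the controls held Myh7 at 42535 ± 2678, Myh6 at 16119 ± 1734, Myh7b at 1166 ± 85.6, Myh9 at 796 ± 172 and Myh10 at 795 ± 25.4 (SD, n = 3 each). Far below them stood Myh11 at 20.7 ± 3.79, Myh8 at 8.40 ± 1.03, Myh14 at 4.10 ± 1.78 and Myh3 at 2.16 ± 0.76 (SD, n = 3 each). Neighbours in this order did not overlap between controls except Myh9 and Myh10. By deposited value over all 6 hearts, not divided by length, Myh7 had the highest mean of all 15556 genes tested and Myh6 the tenth highest. In the controls alone Actc1 (280080) lay above Myh7 (264991) on that scale. Per kilobase, the control mean of Myh7 was 19733 times that of Myh3. In the knockouts the neighbours Myh7b and Myh9, Myh8 and Myh11, and Myh11 and Myh14 overlapped.

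**Figure D1:**
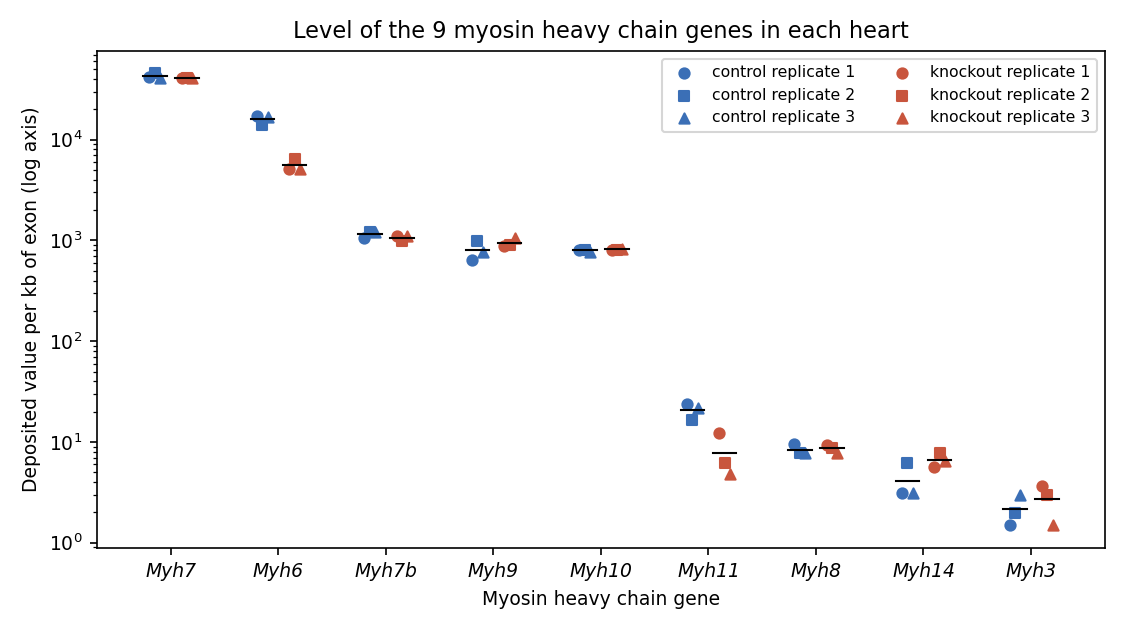
Deposited value per kb of exon (log axis) of the 9 myosin heavy chain genes in each of 3 control (blue) and 3 knockout (red) hearts, with symbols for replicates and a black line at each group mean. All knockouts lie below all controls for Myh6 and Myh11, and the Myh7 means are 42535 and 40829.

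The comparison of knockouts with controls asked how these transcripts differed when both floxed genes were combined with aMyHC Cre. Of the 9 genes, 2 fell, the cardiac alpha chain gene Myh6 and the smooth muscle gene Myh11, to 34.7% and 37.8% of the control mean. The other 7 did not pass an adjusted p of 0.05. Over all 15556 genes tested the same threshold was passed by 17.2%, with 8.61% higher and 8.56% lower, and the groups did not overlap in 35.4%. The shares higher and lower are the background for all counts of list genes given below. Values below are as deposited, and changes are log2 fold changes, knockout minus control, on the log2(value + 1) scale, from limma with Benjamini-Hochberg adjustment over all genes tested.

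Myh6 was at 106187, 86437 and 102984 in control replicates 1, 2 and 3 and at 31576, 39554 and 31568 in knockout replicates 1, 2 and 3. The highest knockout thus lay well under the lowest control, and the fall was larger than the spread within either group. The change was -1.53 (SE 0.11, limma adjusted p = 0.000239), and lay between -1.64 and -1.47 without each heart in turn. Only 33 of the 15556 genes tested had a lower fold change. In these whole hearts fewer cells of a type and less RNA per cell cannot be told apart.

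Myh7, the neighbour of Myh6 and the most abundant of the 9, was at 258390, 283966 and 252616 in control hearts and 252430, 255309 and 255361 in knockout hearts. Control replicate 2 was the highest heart, and the knockouts lay inside the range of the other controls or close to it. The difference was -0.06 (SE 0.10, limma adjusted p = 0.744), and its sign turned under quantile normalization (0.11). The 3 knockouts differed by less among themselves (SD 1677) than the controls did (SD 16685). The antisense transcript Mhrt, known as a regulator of the Myh6 to Myh7 balance in the adult heart, was at 616, 561 and 561 in control hearts and 572, 552 and 602 in knockout hearts (-0.01, SE 0.08, limma adjusted p = 0.953). The sources used here do not say whether counting used strand, so reads of Mhrt and of Myh7 may not be separated where they overlap.

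**Figure D2:**
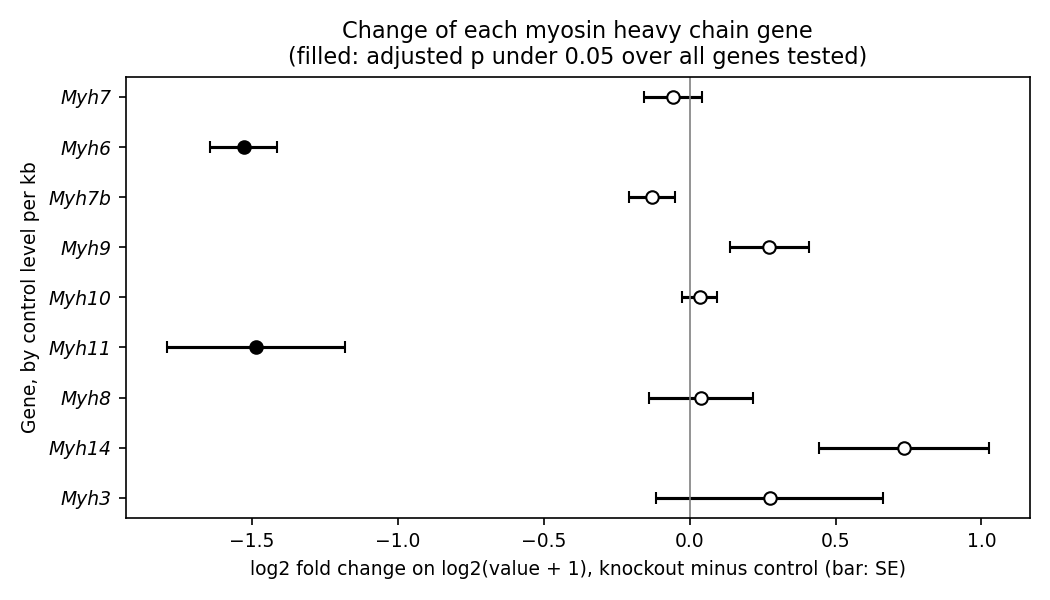
Log2 fold change of each myosin heavy chain gene, knockout minus control, on the log2(value + 1) scale, with bars for the SE from limma (3 hearts a group) and filled points for adjusted p under 0.05. Myh6 (-1.53) and Myh11 (-1.49) stand apart from the other 7, whose open points run from -0.13 for Myh7b to 0.73 for Myh14.

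The make-up of the cardiac pair differed between the groups. Per kilobase, Myh6 made up 29.5%, 23.7% and 29.4% of the sum of Myh6 and Myh7 in control replicates 1, 2 and 3 and 11.3%, 13.6% and 11.2% in knockout replicates 1, 2 and 3. The mean went from 27.5% ± 3.33 to 12.0% ± 1.38 (SD, n = 3 each), a difference of -15.5 percentage points. Every knockout lay below every control, and the exact two-sided permutation test gave p = 0.1, the smallest that 3 against 3 can give. The mean of Myh7 was 2.64 times that of Myh6 in control hearts and 7.29 times in knockout hearts. The log2 ratio of Myh6 to Myh7, which the scaling of a library cannot change, was -1.26, -1.69 and -1.27 in control hearts and -2.97, -2.66 and -2.99 in knockout hearts (exact permutation p = 0.1, two-sided). Control replicate 2, with the lowest Myh6 and the highest Myh7 of the controls, had the lowest control ratio and still lay above all knockouts.

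No other of the 9 genes passed as higher, and the pool as a whole was smaller. The 9 genes together summed to 61403, 62752 and 60184 per kilobase in control hearts and to 48516, 50168 and 49175 in knockout hearts. The knockout mean was 80.2% of the control mean, with no overlap (exact permutation p = 0.1, two-sided, the smallest possible). Myh6 held 86.5% of the difference between the means and Myh7 14.0%, while Myh9 (-1.27%) and Myh10 (-0.15%) went the other way. The Myh7 difference did not pass the test, and its log2 fold change was -0.006 without control replicate 2. As a share of all deposited values the 9 genes went from 2.10% ± 0.06 to 1.73% ± 0.03 (SD, n = 3 each), and Myh7 alone from 1.45% ± 0.09 to 1.42% ± 0.01 (SD, n = 3 each).

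**Figure D3:**
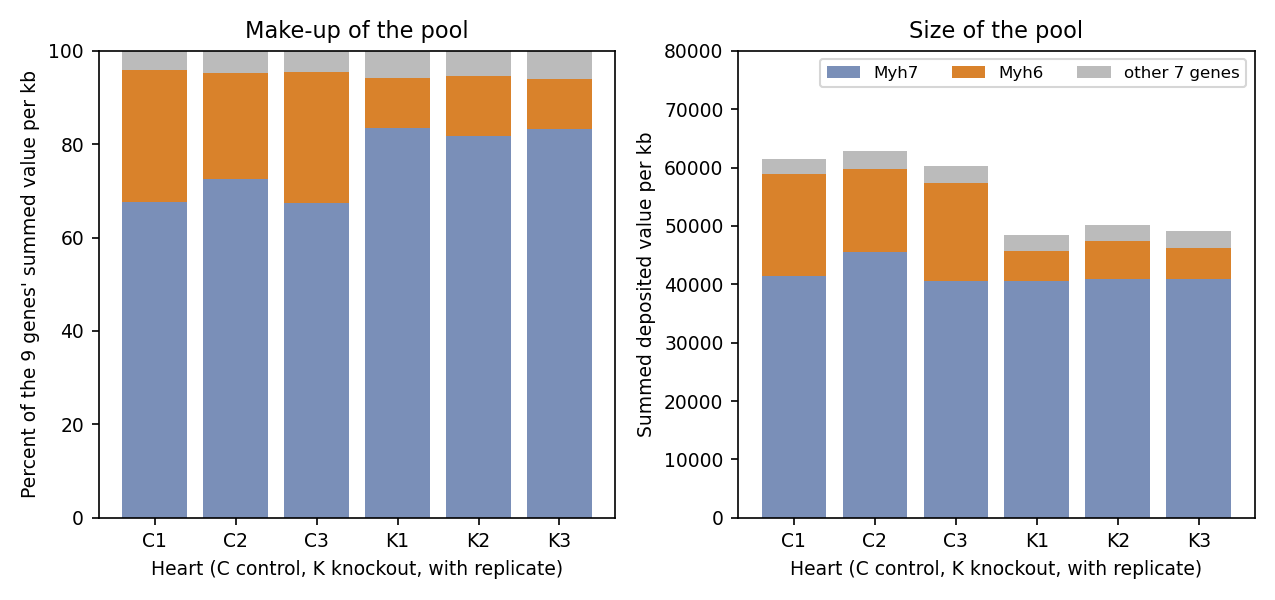
Left, percent of the summed value per kb of the 9 genes held by Myh7 (blue), Myh6 (orange) and the other 7 (grey) in each heart, control replicates C1 to C3 and knockout replicates K1 to K3; right, the summed value per kb itself. The orange part shrinks from between 22.5% and 28.3% of the pool in controls to between 10.5% and 12.9% in knockouts while the Myh7 means on the right are 42535 and 40829.

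Both cardiac genes, like Myh7b, carry a microRNA in an intron, miR-208a in intron 29 of Myh6, miR-208b in intron 31 of Myh7 and miR-499 in intron 19 of Myh7b, counted in the main transcript. Their mature forms are shown, from RefSeq (GRCm38.p6), with the seed, bases 2 to 8, in capitals, because 2 of the 3 share a seed while their hosts, Myh6 and Myh7, differed in whether they passed the test.
miR-208a-3p: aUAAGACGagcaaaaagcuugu
miR-208b-3p: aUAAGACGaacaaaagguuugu
miR-499-5p: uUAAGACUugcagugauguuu
The seeds of miR-208a-3p and miR-208b-3p are the same, and the whole sequences agree at 19 of 22 positions. The seed of miR-499-5p, UAAGACU, differs from theirs, UAAGACG, only at its last base. Poly(A) libraries do not measure mature microRNAs, so the values of these loci count fragments of longer RNA. The Mir208a locus was at 11, 3 and 9 in control hearts and 2, 5 and 5 in knockout hearts, a mean below the limit for testing, and the groups overlapped. Mir208b was at 54, 56 and 51 in control hearts and 46, 50 and 45 in knockout hearts, a difference of -0.19 (SE 0.17, limma adjusted p = 0.487). Its groups did not overlap, as in 35.4% of all genes tested. Mir499 had values of 0 to 2 in every heart.

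**Figure D4:**
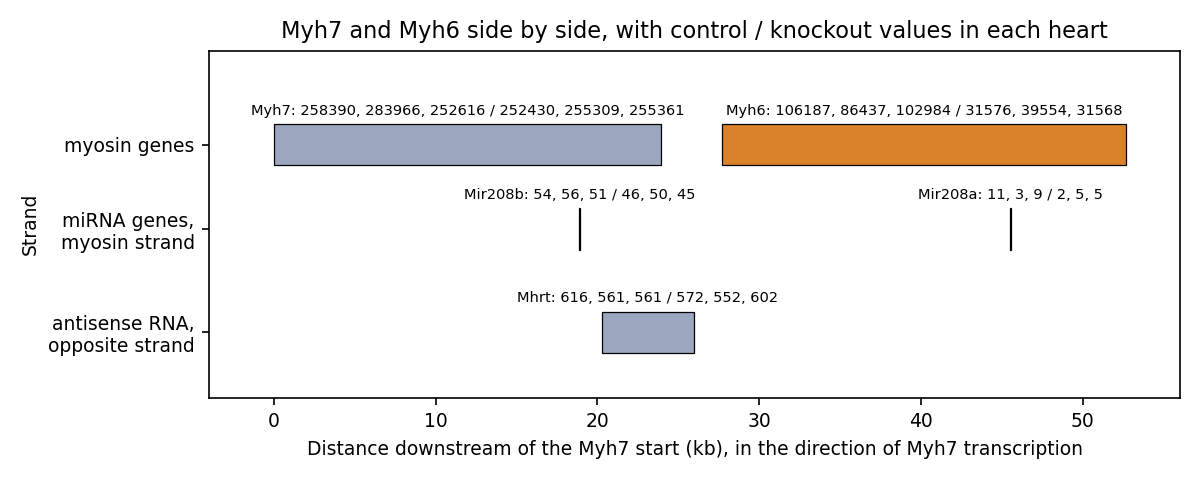
Myh7 and Myh6 drawn to scale as distance in kb downstream of the Myh7 start, with the microRNA genes Mir208b and Mir208a inside them and the antisense RNA Mhrt between them; the numbers are deposited values in the 3 controls, then the 3 knockouts. Myh6 (orange) is the gene of this locus whose change passed the test, while Mir208a was too low for testing.

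Myh7b, a slow-type chain of striated muscle whose transcript is largely non-productive in heart, was at 6579, 7440 and 7537 in control hearts and 6858, 6029 and 6825 in knockout hearts. The groups overlapped, and the difference was -0.13 (SE 0.08, limma adjusted p = 0.292). The skeletal chains Myh3 and Myh8 were near the floor of detection. Myh3 was at 9, 12 and 18 against 22, 18 and 9, equal to an estimated 8.8 to 31.8 reads per heart. Myh8 was at 59, 48 and 48 against 57, 54 and 48, a difference of 0.04 (SE 0.18, limma adjusted p = 0.909) whose sign turned under quantile normalization (-0.07). Of the other skeletal chains, Myh1 of fast fibres was at 7, 3 and 20 against 12, 29 and 43 (1.56, SE 0.61, limma adjusted p = 0.107), passing as higher without control replicate 3 or knockout replicate 1, and Myh2, Myh4, Myh13 and Myh15 had values of 3 or less in every heart. Among skeletal muscle markers, Ckm, the muscle creatine kinase that cardiomyocytes also make, fell by 0.61 (SE 0.09, limma adjusted p = 0.0023) and Tnni2, a fast troponin, by 0.92 (SE 0.25, limma adjusted p = 0.0338). The remaining 3 of 5 tested did not pass, and 1 fell without any one control or without knockout replicate 2 or 3.

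Myh11, the heavy chain of differentiated smooth muscle, was at 153, 106 and 141 in control hearts and 80, 40 and 31 in knockout hearts. All knockouts lay below all controls, and knockout replicate 1 was the highest of its group. The mean went from 133 ± 24.4 to 50.3 ± 26.1 (SD, n = 3 each), a change of -1.49 (SE 0.31, limma adjusted p = 0.00949). Each value rests on an estimated 33.0 to 150.1 reads. The change was -1.87 without knockout replicate 1 and between -1.64 and -1.20 without each other heart.

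Of 15 genes listed beside Myh11 for smooth muscle, 7 fell and 1, the phospholamban gene Pln, rose (8.56% and 8.61% of all genes tested). The median was -0.21 against 0.00 over all genes tested, with 5 to 6 falling when each heart was left out. Pln passed in 1 of these 6 fits, the one without knockout replicate 3. Pln, also counted as a ventricular marker below, and Tpm1 had control means of 53261 and 89417. The counts are thus not limited to smooth muscle, and the source cells were not tested. Acta2, the smooth muscle actin, was at 26680, 24225 and 29957 against 9040, 8931 and 6450 (-1.74, SE 0.13, limma adjusted p = 0.000239). Cnn1, which encodes calponin, was at 1498, 1337 and 1576 against 509, 316 and 217 (-2.16, SE 0.24, limma adjusted p = 0.000684). Myl9, a regulatory light chain, and Mylk4, a light chain kinase family member, changed by -1.35 (SE 0.14) and -1.44 (SE 0.23). Embryonic cardiomyocytes are known to make Acta2 as well. The others that fell were Smtn, Tpm1 and Synpo2 (-0.51, -0.36 and -0.21), of smoothelin, tropomyosin and an actin-binding protein. Tagln, which encodes transgelin, and Lmod1 did not pass, with means of 636 and 721 for the first and 31.0 and 29.7 for the second, controls then knockouts. The rest of the list did not pass either. Actg2, Mylk, Cald1 and Aoc3 had differences of 0.01 (SE 0.26), 0.08 (SE 0.12), 0.21 (SE 0.10) and 0.21 (SE 0.12), and Tpm2 of -0.28 (SE 0.12).

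Markers of mural cells, which surround vessels and include smooth muscle, are given beside Myh11. Their summed level ran from 33744 to 36885 in control hearts and from 36872 to 39540 in knockout hearts, with a median change of 0.23. The 1 of 10 that passed was Mcam, an adhesion molecule, which rose by 0.34 (SE 0.07, limma adjusted p = 0.00854), and 2 passed without knockout replicate 1. Pdgfrb, the defining receptor of these cells, had a difference of 0.26 (SE 0.09, limma adjusted p = 0.0789), and no mural marker was at 0. Below 0 were the differences of Vtn (-0.73, SE 0.31), Des (-0.14, SE 0.07) and Rgs5 (-0.02, SE 0.08), which did not pass; Vtn encodes vitronectin, Des desmin and Rgs5 a regulator of G protein signalling. Of the markers of other cells, 5 of 10 for fibroblasts, 8 of 10 for macrophages and 5 of 12 for endothelial cells rose, with medians of 0.35, 0.86 and 0.24. Those that did not pass include the collagen gene Col1a1 (0.24, SE 0.20) and the endothelial genes Cdh5 (0.00, SE 0.08), Kdr (0.04, SE 0.07) and Cldn5 (-0.08, SE 0.14). Their summed levels did not overlap between groups, with 94041 to 109574 against 122725 to 153199 for fibroblasts, 1817 to 2094 against 2696 to 3870 for macrophages and 27179 to 29179 against 31682 to 36419 for endothelial cells. Among them rose the collagen gene Col3a1 (0.55, SE 0.10), Postn, which encodes periostin (0.50, SE 0.09), the macrophage receptor Csf1r (0.82, SE 0.13), complement gene C1qa (0.95, SE 0.17), and the endothelial genes Emcn (0.91, SE 0.06) and Npr3 (0.95, SE 0.07). With single hearts left out, 8 endothelial markers rose without knockout replicate 1 and 3 fibroblast markers without knockout replicate 2. Epicardial markers summed to 4351 to 4856 against 5184 to 5901, and 1 of 8, Tcf21, rose (0.78, SE 0.14), or 3 without control replicate 3. Of 8 erythroid markers tested, genes of red blood cells, 0 passed in limma and 0 in limma-voom on estimated reads, while 5 were lower at an unadjusted p under 0.05 in limma. Their median was -0.52, with Hbb-bs at -0.37 (SE 0.18) and Hba-a1 at -0.56 (SE 0.18), and 3 passed as lower without control replicate 1 or knockout replicate 3 and 1 as higher without knockout replicate 1. The part of these cells in the changes of the myosin genes was not tested.

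The non-muscle chains held a larger share of the pool in each knockout than in any control, but their levels did not pass the test. Together they held 2.37%, 2.87% and 2.55% of the pool in control hearts and 3.49%, 3.43% and 3.87% in knockout hearts (exact permutation p = 0.1, two-sided, the smallest possible). The sum they are a share of also fell with Myh6. Myh9, the non-muscle chain IIA, was at 4772, 7297 and 5683 in control hearts and 6580, 6706 and 7922 in knockout hearts. Control replicate 2 lay among the knockouts, and the difference was 0.27 (SE 0.14, limma adjusted p = 0.2). Without control replicate 2 it was 0.44 (SE 0.11, limma adjusted p = 0.0337). Myh10, the chain IIB, was the steadiest of the 9, at 6282, 6288 and 5943 against 6231, 6293 and 6426 (0.03, SE 0.06, limma adjusted p = 0.739). Myh14, the chain IIC of epithelia and nerve, was at 20, 40 and 20 against 37, 50 and 42 (0.73, SE 0.29, limma adjusted p = 0.111), or 1.06 (SE 0.25, limma adjusted p = 0.0275) without control replicate 2.

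Of 23 partners and regulators of the non-muscle motors, 5 fell and 1 rose, with a median of -0.02. Over all genes tested 8.56% fell and 8.61% rose. Among those that fell, Ect2 (-1.01, SE 0.13), Anln (-0.77, SE 0.09) and Cit (-0.63, SE 0.09) encode an exchange factor, anillin and citron kinase, which act with myosin in the contractile ring at cell division. The others that fell were the myosin phosphatase subunit Ppp1cb (-0.44, SE 0.09) and the essential light chain Myl6 (-0.29, SE 0.07). Lima1, an actin-bundling protein, rose by 0.34 (SE 0.07). With single hearts left out, 2 genes rose without control replicate 1 and 0 without knockout replicate 2. The kinases Rock1 and Rock2, which activate non-muscle myosin, had differences of 0.04 and 0.21 and did not pass.

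Of the partners of Myh6 and Myh7 in the thick filament and M-band, 3 of 11 rose, with a median of -0.11. Over all genes tested 8.61% rose. The number that rose was 2 without control replicate 2 or 3 or knockout replicate 2 or 3, and 1 with no variance trend. Without control replicate 1, 1 fell. Myom2, an M-band protein of fast and adult-type muscle, was at 3519, 2921 and 3459 against 6122, 8249 and 6286 (1.05, SE 0.12, limma adjusted p = 0.000684). Mybpc2, the fast skeletal myosin-binding protein C, was at 223, 313 and 188 against 445, 401 and 379 (0.79, SE 0.17, limma adjusted p = 0.0108). Mybphl, a myosin-binding protein H-like gene of atria and conduction tissue, rose by 0.98 (SE 0.30, limma adjusted p = 0.0497) from low values. Mybpc3, the cardiac myosin-binding protein C, and Ttn, the titin gene, differed by 0.01 (SE 0.09) and -0.24 (SE 0.09) and did not pass.

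Of 11 myosin light chain genes tested, 3 fell and the median was -0.16, while 8.56% of all genes tested fell. Myl4, the atrial and embryonic essential light chain, was at 14493, 16531 and 13631 against 10683, 9451 and 8336 (-0.65, SE 0.10, limma adjusted p = 0.00264), and the other 2 were Myl9 and Myl6. The ventricular chains Myl2 and Myl3 and the atrial chain Myl7, light chains of the cardiac motor, had differences of -0.12 (SE 0.10), 0.04 (SE 0.09) and -0.16 (SE 0.21) and did not pass.

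**Figure D5:**
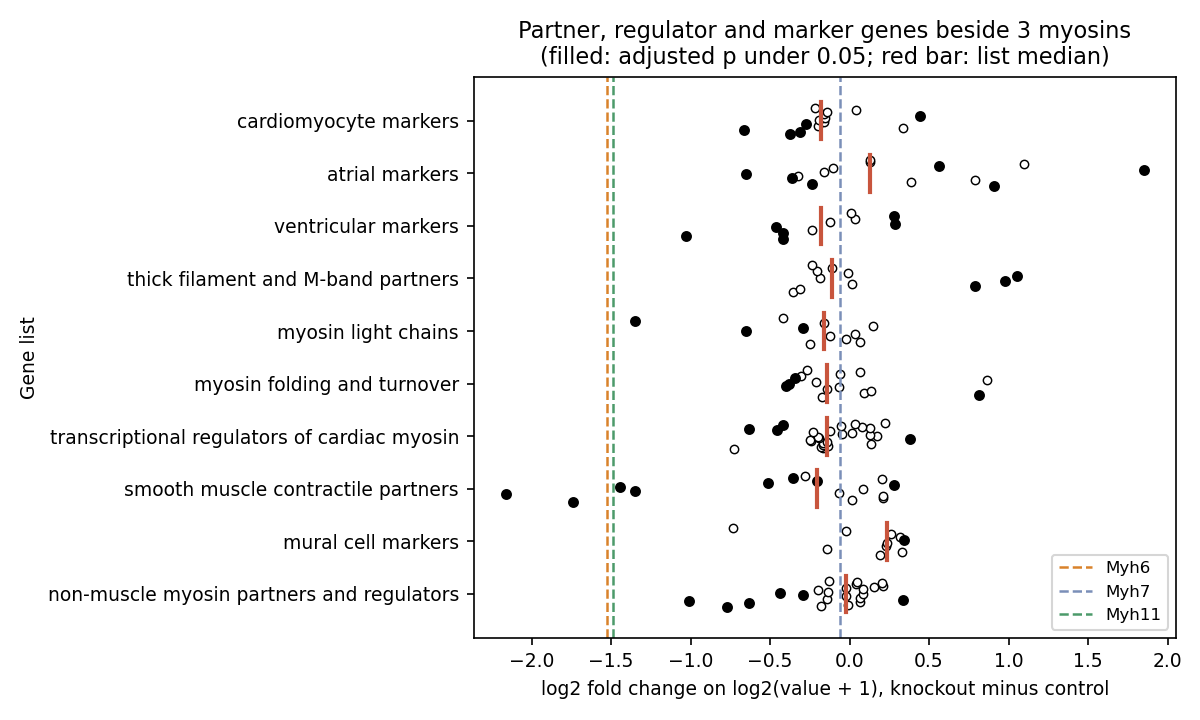
Log2 fold change, knockout minus control on the log2(value + 1) scale, of genes of 10 lists (filled points passed an adjusted p of 0.05 in limma, red bars are list medians), with dashed lines at Myh6, Myh7 and Myh11. List medians lie between -0.21 and 0.23, and single genes reach as low as Cnn1 (-2.16) and Acta2 (-1.74).

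Of 14 cardiomyocyte markers, 4 fell and 1 rose, with a median of -0.18 (8.56% of all genes tested fell and 8.61% rose). With single hearts left out 1 to 3 fell (1 without control replicate 2 or 3 or knockout replicate 2 or 3). Those that fell were the calcium pump Atp2a2 (-0.66, SE 0.08), cardiac actin Actc1 (-0.38, SE 0.11), Actn2 (-0.31, SE 0.08) and Ldb3 (-0.28, SE 0.08) of the Z-disc, and Tcap, the titin cap, rose by 0.45 (SE 0.12). The number that rose was 2 without control replicate 2 or knockout replicate 3 and 0 without any one of the other hearts. Tnnt2, cardiac troponin T, differed by -0.22 (SE 0.09, limma adjusted p = 0.14). The summed level of the list was 723418 to 747360 in control hearts and 554968 to 652193 in the knockouts.

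Chamber markers were read beside them. Of 14 atrial markers 3 rose and 3 fell, with a median of 0.13 (8.61% of all genes tested rose and 8.56% fell). Nppa, the natriuretic peptide, rose by 1.85 (SE 0.20), Bmp10 by 0.91 (SE 0.23) and the transcription factor Nr2f2 by 0.56 (SE 0.10). Myl4 fell as above, as did the potassium channel Kcna5 (-0.36, SE 0.09) and the caveolin Cav1 (-0.24, SE 0.07). With single hearts left out, 2 to 5 atrial markers rose, 5 without control replicate 1 or knockout replicate 1, and 1 to 3 fell, 1 without control replicate 3 or knockout replicate 3. Of 10 ventricular markers 4 fell and 2 rose, with a median of -0.18 (8.56% of all genes tested fell and 8.61% rose). Hand1 fell by 1.03 (SE 0.17), Lbh by 0.47 (SE 0.07), and Hey2 and Fhl2 by 0.42 each (SE 0.10 and 0.08), while Pln, phospholamban, and Mpped2 rose by 0.28 and 0.29 (SE 0.08 and 0.07), of which 0 to 1 passed without each heart in turn. Summed levels of both lists overlapped between groups. Whether the dissected hearts differed in chamber make-up was not tested.

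Of 27 transcription factors and cofactors listed as regulators of cardiac myosin genes, 3 fell and 1 rose, with a median of -0.14. Over all genes tested 17.2% passed, with 8.56% lower and 8.61% higher. Srf, the serum response factor, was at 3504, 3848 and 4059 against 2551, 2194 and 2612 (-0.63, SE 0.08, limma adjusted p = 0.0014). Sox6, a repressor of slow muscle genes, was at 309, 255 and 295 against 223, 215 and 187 (-0.46, SE 0.12). Tead4, of the family that binds M-CAT elements, fell by 0.42 (SE 0.12), and Nfatc1, chiefly a factor of the endocardium, rose by 0.38 (SE 0.09). Tead1, the most abundant TEAD gene of the list, the thyroid hormone receptor gene Thra and the cardiac factors Gata4 and Tbx5 had differences of 0.08 (SE 0.07), 0.03 (SE 0.08), -0.17 (SE 0.08) and 0.13 (SE 0.15) and did not pass. With single hearts left out, 1 fell without control replicate 3 or knockout replicate 2, and the number that rose was 2 without knockout replicate 1 and 0 without control replicate 2 or knockout replicate 2 or 3.

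Among genes of myosin folding and turnover, 3 of 15 fell and 1 rose, with a median of -0.14. Over all genes tested 8.56% fell and 8.61% rose. Fbxo32, a muscle ubiquitin ligase, was at 727, 651 and 667 against 1083, 1312 and 1210 (0.81, SE 0.09, limma adjusted p = 0.000651). Smyd2, a methyltransferase, Stip1, a co-chaperone of Hsp90, and Trim55, a ubiquitin ligase of the sarcomere, fell by 0.40 (SE 0.07), 0.38 (SE 0.06) and 0.35 (SE 0.07). Unc45b, the dedicated chaperone of the muscle myosin head, differed by -0.26 (SE 0.08, limma adjusted p = 0.0565) and Smyd1, its partner, by -0.07 (SE 0.06). The number that fell was 2 to 5 without each heart in turn, 5 without control replicate 1 or knockout replicate 1 and 2 without knockout replicate 2. The number that rose was 2 without knockout replicate 1.

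The genes whose pattern over the 6 hearts was most like that of Myh6, by Pearson correlation of log2(value + 1) among 7864 genes with a mean of at least 400, were Kansl3 (0.997), Atp11a (0.996) and Msra (0.996). Atp11a and Msra fell by 0.42 (SE 0.07) and 0.50 (SE 0.08), and Kansl3 differed by -0.18 (SE 0.06, limma adjusted p = 0.0562). For Myh7 they were Tdg (0.970), Actr3b (0.956) and Rps6kc1 (0.925), each highest in control replicate 2 as Myh7 was. These correlations describe 6 libraries, and those with Myh6 rest mainly on the difference between the groups.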

How the data were processed

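Values were deposited by the authors in 1 table for 6 hearts, 3 controls and 3 knockouts, grouped by sample title. The tools named per the submitters' processing notes are featureCounts 1.5.0, STAR 2.4.2a, Trimmomatic, DESeq and DESeq2, with build mm10 and no roles. The deposited unit is best called a score: read numbers divided by a factor per heart and rounded, as read from the values. The plan held a count test for raw counts and limma for rounded normalized values, and the second was used: limma 3.58.1 (R 4.3.3), variance trend, log2(value + 1), group only, 15556 genes of mean value 10 or more, Benjamini-Hochberg threshold 0.05. Depth was estimated from the step between values up to 150; low genes carry counting error. Shares and levels per kb used the longest coding transcript in GENCODE M21 (mm10) and exact permutation tests (scipy 1.17.1; Python 3.11.15). The 9 genes and the lists were chosen with earlier results of these data known. All 9 are named, with up to 4 passing members of each list by p (2 by level where none passed) and the 3 genes most like Myh6 and Myh7; other genes named were chosen after their values were seen. Promoter and microRNA sequences come from RefSeq. Replicates of a group differed beyond sampling noise.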

Additional observations from a re-analysis of the deposited data

How the results depend on the processing

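The falls of Myh6 (adjusted p from 0.000188 to 0.0134 in limma) and Myh11 (0.000905 to 0.0492), and those of Rbpms and Rbpms2, passed under all 16 alternatives run. These were 2 pseudocounts, 2 filters, 2 normalizations, no variance trend, the replicate block, each heart left out, and limma-voom on estimated reads and embryo sex as a term, which were chosen after seeing the data. More Xist than Y-linked RNA was found in 2 controls and 1 knockout, and less in 1 control and 2 knockouts. With sex as a term 2090 genes passed. Falling regulators of cardiac myosin and falling atrial markers then went from 3 to 1 each. Rising cardiomyocyte markers and rising smooth muscle list genes went from 1 to 0 each, and rising fibroblast markers from 5 to 7. With single hearts left out, 2 to 4 of the 9 genes passed, Myh9 and Myh14 joining without control replicate 2. Signs turned for Myh7 under quantile normalization (0.11) and for Myh8 under it (-0.067) and without control replicate 2 or 3 (-0.009 each) or knockout replicate 1 (-0.014); Myh8 ran from -0.014 to 0.137 with single hearts left out, and none of these values passed. The 2670 genes passing were 1755 with no filter and 1626 with no variance trend, and 1319 to 2371 without each heart in turn (1319 without knockout replicate 2, 1669 without control replicate 3). List genes passing went from 62 to 38 with no variance trend and to 40 to 68 without each heart in turn. The shares kept their direction under each length measure and without each heart, where 2 against 3 cannot go below an exact permutation p of 0.2. Hearts of the same replicate number were not alike (correlations of deviations -0.04, -0.37 and 0.05), but with 3 hearts a group this cannot exclude pairing. With the replicate block 3530 genes and 92 list genes passed, among them 4 erythroid markers as lower, 6 mural markers as higher, 8 regulators of cardiac myosin as lower, 5 folding and turnover genes as lower and Myh1 as higher, and Myh6 had an adjusted p of 0.000189 and Myh11 of 0.00261. Myh3, Myh11, Myh14 and the microRNA loci are limited by depth.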
